A study of Mus musculus with 36 samples.

Results

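Proliferation and DNA replication genes are described here in alveolar macrophages (AΦ) and monocytes sorted from the lungs of mice exposed to filtered air (FA) or to concentrated fine particulate matter (PM2.5). The set held 44 genes, taken by their symbols from the known machinery of the cell cycle, and all 44 were among the 27562 genes with values. RNA-seq covered 36 libraries in 12 groups of 3, 18 libraries of AΦ and 18 of monocytes. The study took 3 mice from each exposure at each time and sorted both cell types from them, so AΦ and monocyte libraries, and those of both CD45 types, may come from the same mice. The labels tie no library to a mouse, and the comparisons of cell type and origin treated the libraries as separate samples. All mice were male chimeras: C57BL/6J hosts carrying CD45.2 were irradiated under a lead shield over the chest, received busulfan, and were given marrow of B6.SJL-Ptprca Pepcb/BoyJ donors carrying CD45.1. Host cells of the shielded lung therefore carried CD45.2 and cells from the grafted marrow CD45.1. AΦ were sorted as tissue-resident AΦ (TR-AΦ, CD45.2) after 4-weeks and 32-weeks of FA or PM2.5, and as bone marrow-derived AΦ (BM-AΦ, CD45.1) after 32-weeks of FA or PM2.5. Monocytes were sorted as CD45.2 cells after 4-weeks, and as cells of either CD45 type after 32-weeks, from FA and PM2.5 exposed mice alike. The labels of the 32-weeks libraries carry the digit 1 or 2 and not the CD45 type. For AΦ, 1 is known to stand for CD45.1 cells and 2 for CD45.2 cells, and monocytes were taken to follow the same key, on which every monocyte origin below rests. AΦ were gated as CD64+ CD11c high CD11b low and monocytes as Ly6G- MHC II- CD64 low CD11b high. Values were in FPKM, fragment counts scaled by the length of a gene and by the size of the library. The libraries of a group are named replicate 0, 1 and 2, and group values are listed in that order.

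A cell that divides first passes the restriction point, where cyclin E and the E2F factors start the transcription of replication genes. Origins of replication are licensed by loading of the Mcm2-7 helicase, are fired when Cdc45 and the GINS complex join it, and the fork then runs with the sliding clamp Pcna and with nucleotides made by ribonucleotide reductase, thymidylate synthase and thymidine kinase. Later, cyclin A and cyclin B with Cdk1 drive entry into mitosis, the spindle and kinetochore proteins separate the chromosomes, and the anaphase-promoting complex with Cdc20 and Ube2c ends mitosis. AΦ of the healthy lung are long-lived and are known to renew themselves by slow local division, while monocytes in tissue are mostly cells that have left the cycle. Since the libraries are bulk RNA of sorted cells, a lower FPKM from fewer cycling cells and from less RNA in each cycling cell cannot be told apart.

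FPKM summed to between 1839577 and 3339020 over all genes of a library, and the read depth could not be recovered from them. The sorted cells carried the markers of their labels: 9 AΦ marker genes summed to between 4659 and 11530 FPKM in AΦ and to between 172 and 1406 in monocytes, and 9 monocyte marker genes to between 93.6 and 547 in AΦ and between 1155 and 4220 in monocytes. Among these, Car4 was listed at 0 in PM2.5 exposed monocytes of 4-weeks and FA exposed CD45.1 monocytes, Ly6c2 in FA exposed TR-AΦ of 32-weeks, and Ms4a4c in TR-AΦ of 32-weeks with either exposure. The AΦ marker Fabp4 overlapped, at 14.6 to 88.2 FPKM in AΦ and 1.38 to 42.9 in monocytes. Over all monocyte libraries, B cell and plasma cell genes summed to between 18.7 and 74.0 FPKM. Dendritic cell genes there summed to between 11.3 and 166. Replicate 2 stood apart in several marker lists. At 32-weeks the 8 red cell genes summed to between 44.1 and 62.6 FPKM in replicate 2 of the AΦ groups and to between 1.88 and 6.68 in replicates 0 and 1, while at 4-weeks replicate 2 was the lowest, at 7.23 and 8.84. B cell and plasma cell genes summed to 22.4 and 35.7 FPKM in replicate 2 of TR-AΦ at 4-weeks and to at most 3.81 in replicates 0 and 1. Among monocytes at 4-weeks, 6 neutrophil genes summed to 341 and 1046 FPKM in replicate 2 and to at most 51.8 in replicates 0 and 1, and 8 T cell and NK cell genes to 68.5 and 76.2 against at most 9.29. Of the 11 myeloid precursor genes, whose cells cycle in marrow, Prtn3, Camp and Fcnb were listed at 0 in all 18 AΦ libraries, and the list summed to at most 4.02 FPKM in AΦ and 9.08 in monocytes.

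Most members were transcribed at low levels in both cell types. The median of the 44 member means was 2.08 FPKM in AΦ and 0.917 in monocytes, and 40 members in AΦ and 21 in monocytes averaged 1 FPKM or more. Ranked among all genes that averaged 1 FPKM or more, those 40 had a median percentile of 15.5 in AΦ and those 21 one of 20.8 in monocytes. Only Pcna, E2f1 and Mki67 had a mean of at least 10 FPKM in AΦ, and only Pcna did in monocytes. The sliding clamp Pcna, which also serves DNA repair, made up between 16.9% and 34.8% of the summed FPKM of all members in an AΦ library and between 24.7% and 56.7% in a monocyte library. In AΦ 40 members reached a mean of 1 FPKM and were tested, and Cenpe, Cdc6, Ccne1 and Ccne2 did not, with means between 0.549 and 0.955. In monocytes 21 members were tested, and the other 23 had means between 0.207 and 0.951 with 36 of their 414 values listed at 0. Over both cell types 33 members were tested.

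**Figure D1:**
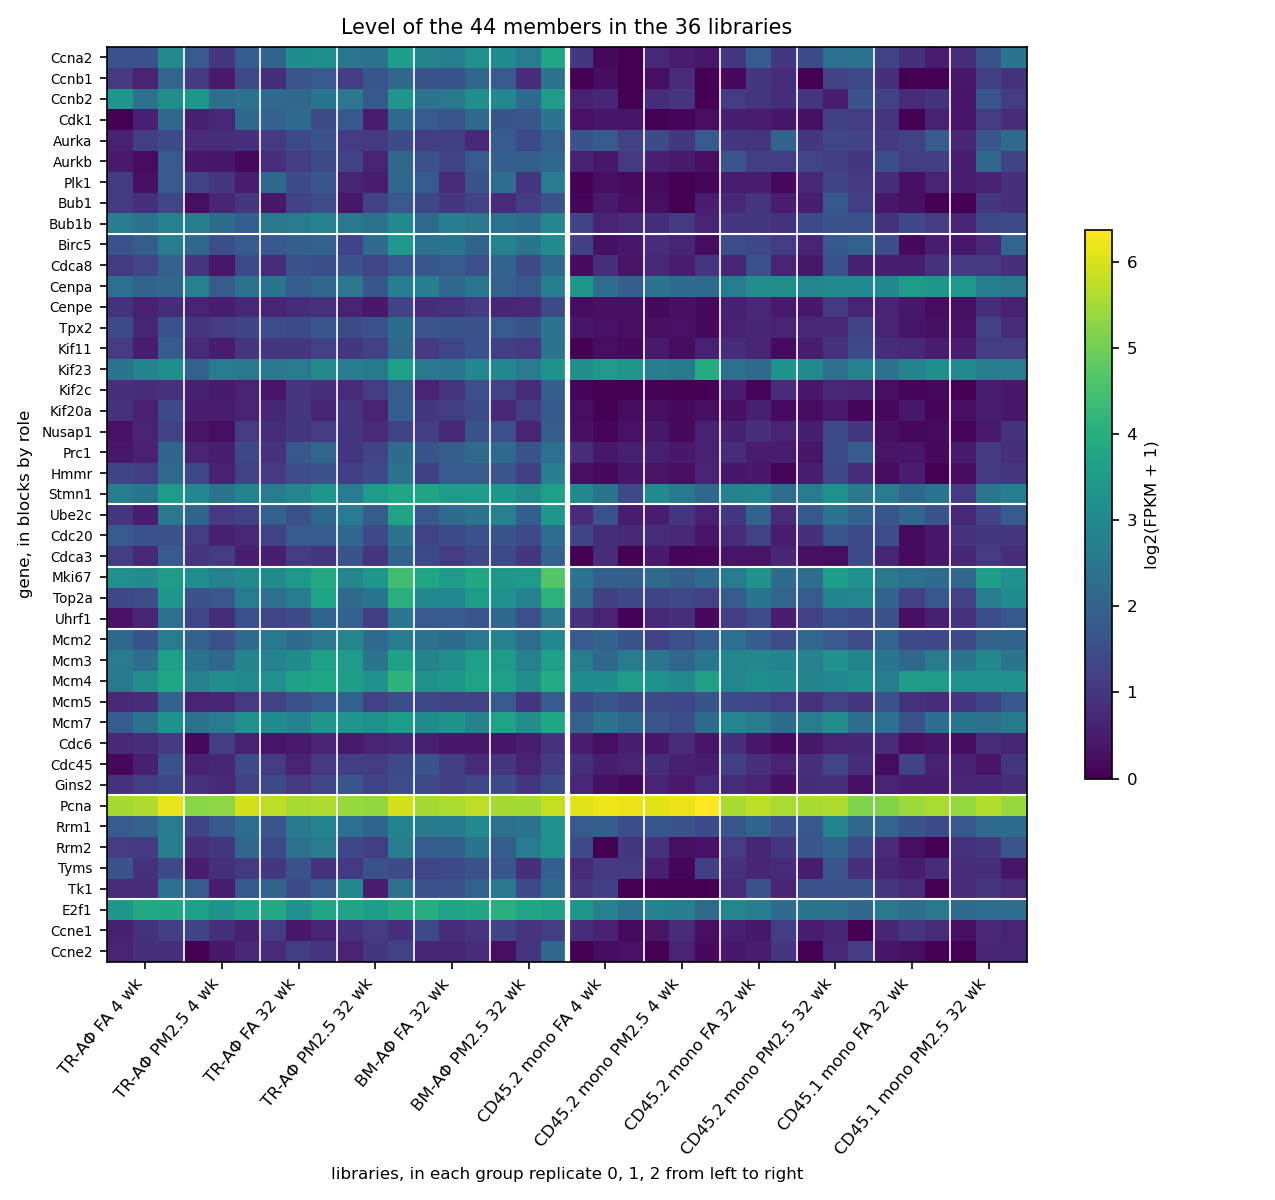
Level of the 44 members (rows, in blocks by role) in the 36 libraries (columns, replicates 0, 1 and 2 of each group from left to right), as the colour of log2(FPKM + 1). Pcna was the highest member in both cell types, and the cyclin and spindle rows other than Aurka, Kif23 and Cenpa had higher means in the 18 AΦ libraries on the left than in the 18 monocyte libraries on the right (lighter is higher).

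By role, the mitotic cyclins and kinases led by AΦ mean were Ccnb2 and Ccna2, the B-type and A-type partners of Cdk1. Ccnb2 averaged 5.78 FPKM in AΦ and 0.882 in monocytes, and Ccna2 averaged 5.64 FPKM in AΦ and 1.496 in monocytes. Bub1b, a kinase-like protein of the spindle checkpoint, averaged 4.94 FPKM in AΦ and 1.19 in monocytes, while its partner Bub1 averaged 1.16 FPKM in AΦ and 0.541 in monocytes. The remaining members of this role lay between 1.39 FPKM (Aurka, the centrosome kinase) and 2.24 (Cdk1) in AΦ, with Aurkb, Plk1 and Ccnb1 between them. Aurka was the only 1 of the 9 with a higher mean in monocytes, at 1.76 FPKM.

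Among the spindle, kinetochore and cytokinesis genes the levels were led by Stmn1, which destabilizes microtubules and is also used outside mitosis, by Kif23, a motor of the central spindle, and by Cenpa, the histone H3 variant of centromeres. Stmn1 averaged 8.15 FPKM in AΦ and 4.87 in monocytes, Kif23 5.94 FPKM in AΦ and 6.74 in monocytes, and Cenpa 3.95 FPKM in AΦ and 6.41 in monocytes. Kif23 and Cenpa thus had the higher mean in monocytes. Birc5, a subunit of the chromosomal passenger complex, averaged 3.92 FPKM in AΦ and 1.13 in monocytes, and its partner Cdca8 averaged 1.89 FPKM in AΦ and 0.771 in monocytes. The spindle factors Tpx2, Hmmr, Prc1, Kif11 and Nusap1 averaged between 1.06 and 2.07 FPKM in AΦ and between 0.442 and 0.668 in monocytes. The motors Kif2c, Kif20a and Cenpe averaged 1.03, 1.06 and 0.778 FPKM in AΦ. In the mitotic exit group, Ube2c averaged 3.81 FPKM in AΦ and 1.77 in monocytes, Cdc20 2.09 FPKM in AΦ and 0.951 in monocytes, and Cdca3 1.44 FPKM in AΦ and 0.459 in monocytes.

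Of the helicase subunits, Mcm4 averaged 9.801 FPKM in AΦ and 8.14 in monocytes, Mcm7 7.67 FPKM in AΦ and 4.14 in monocytes, Mcm3 7.597 FPKM in AΦ and 5.33 in monocytes, Mcm2 4.33 FPKM in AΦ and 2.46 in monocytes, and Mcm5 1.63 FPKM in AΦ and 1.53 in monocytes. Mcm5 was thus the lowest subunit of the set, although the helicase holds its subunits in equal number. The loading factor Cdc6 averaged 0.549 FPKM in AΦ, and the firing factors Cdc45 and Gins2 averaged 1.06 and 1.41. At the fork, the ribonucleotide reductase subunits Rrm1 and Rrm2 averaged 4.398 and 3.23 FPKM in AΦ and 2.73 and 1.06 in monocytes. Thymidine kinase Tk1 averaged 2.602 FPKM in AΦ and 0.883 in monocytes, and thymidylate synthase Tyms averaged 1.49 FPKM in AΦ and 0.772 in monocytes. E2f1, which activates the genes of replication, averaged 12.02 FPKM in AΦ and 4.87 in monocytes, and the E cyclins Ccne1 and Ccne2 were under 1 FPKM in both. Of the chromatin genes, the division marker Mki67 averaged 10.6 FPKM in AΦ and 5.29 in monocytes, the topoisomerase Top2a 6.704 FPKM in AΦ and 3.21 in monocytes, and Uhrf1, which reads hemimethylated DNA, 2.33 FPKM in AΦ and 1.096 in monocytes.

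AΦ were compared with monocytes of the same CD45 type at each time point, as a measure of which cell type carried more of the division programme, with limma on log2(FPKM + 1) over 13307 genes and FA and PM2.5 libraries weighted equally. At 4-weeks 16 of the 33 members tested were higher in TR-AΦ than in CD45.2 monocytes and 3 were lower, where 48.2% of all genes were called, 22.6% higher and 25.5% lower. In TR-AΦ at 32-weeks 13 members were higher and 1 was lower than in CD45.2 monocytes, against 47.3% of genes called, 23.6% higher and 23.7% lower. In BM-AΦ at 32-weeks 26 members were higher and 1 was lower than in CD45.1 monocytes, against 50.9% of genes called, 27.1% higher and 23.8% lower. The members' median log2 fold change was 0.60, 0.59 and 1.03 in these comparisons, and that of all genes was -0.019, 0.000 and 0.028. The 10 members called higher in all 3 were Ccna2, Ccnb1, Ccnb2, Cdk1, Plk1, Bub1b, Tpx2, Hmmr, Mcm7 and E2f1. A further 8 were higher in 2 comparisons (Birc5, Cdca8, Kif11, Cdc20, Mki67, Mcm2, Rrm2 and Tk1), 9 in 1, and 17 in none, of which 11 were under the filter on low values. The filter used the mean over both cell types, and 12 of the 33 members passed it through AΦ alone, with monocyte means under 1 FPKM: Ccnb1, Ccnb2, Cdk1, Plk1, Cdca8, Tpx2, Kif11, Prc1, Hmmr, Cdc20, Tyms and Tk1. None passed through monocytes alone, so the filter favoured higher calls and the counts over the 33 are a description. Those 12 gave 9, 7 and 12 of the higher calls at 4-weeks, in TR-AΦ and in BM-AΦ at 32-weeks, and the 21 members at 1 FPKM or more in both cell types gave 7, 6 and 14. Without a filter, 18, 14 and 30 of all 44 members were called higher, against 13.4%, 12.2% and 13.5% of genes, and 1 in each was called lower, against 13.6%, 14.7% and 12.2% of genes. The groups set against each other in the 3 comparisons shared no library, although those of 32-weeks may share mice. All 36 libraries entered each of the 3 fits, with the same filter and 1 spread per gene, so the 3 are not independent.

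**Figure D2:**
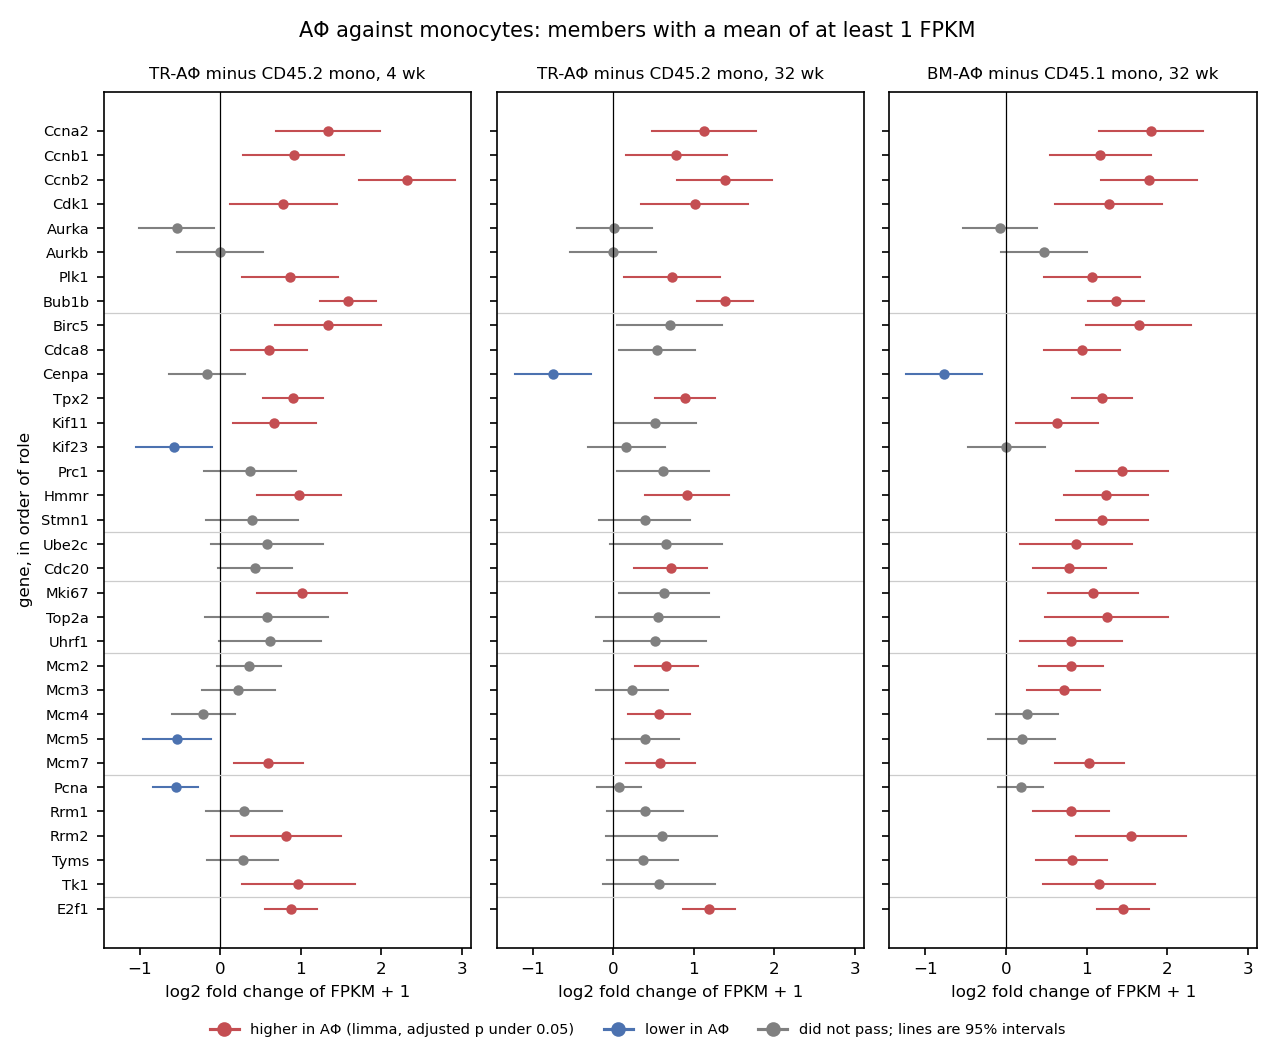
Log2 fold change of FPKM + 1 (x axis) of the 33 members tested (y axis, in order of role) in the comparisons of AΦ with monocytes of the same CD45 type, with lines for 95% intervals. Red points passed limma at an adjusted p of 0.05 as higher in AΦ and blue points as lower: 16 and 3 at 4-weeks, 13 and 1 in TR-AΦ at 32-weeks, and 26 and 1 in BM-AΦ at 32-weeks.

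Genes of the cell cycle are known to share promoter elements: a CCAAT box bound by NF-Y, a CHR element (cell cycle genes homology region) with the core TTTGAA or TTCGAA bound by the DREAM and MMB complexes, and E2F sites, of which TTTNNCGC was searched as a core. RefSeq promoters of GRCm38.p6 (mm10), from 250 bases before to 50 after the start of a gene, were at hand for 36 of the 44 members and for 27025 genes in all, and the letters were searched on both strands (TTCGAA reads the same on both). No match in the bases printed below overlapped another. CCAAT was found in 28 of the 36 members (77.8%) and in 37.9% of all promoters, and at least 2 CCAAT in 19 members (52.8%) and 12.2%. TTTGAA or TTCGAA was found in 21 members (58.3%) and 19.4% of all promoters, CCAAT together with either in 20 (55.6%) and 7.7%, and TTTNNCGC in 7 (19.4%) and 5.27%. CCAAT with TTTGAA or TTCGAA stood in 6 of 7 mitotic cyclins and kinases and 3 of 3 mitotic exit genes, in 3 of 6 origin genes, and in 0 of 5 fork and nucleotide genes. TTTNNCGC stood in 4 of 6 origin genes. A match of letters is a description of the sequence and not evidence of a bound site.

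The 150 bases before the RefSeq start are printed for the 6 members called in most comparisons among those with a promoter entry, so that their elements can be read side by side. Ccnb1 and Plk1 were called as often as 5 of the 6, and ties were settled by the smallest adjusted p. They run 5′ to 3′ along the gene in lower case, with capitals for CCAAT, which reads as ATTGG where it lies on the other strand, and for the other motifs named above.
Ccnb2, chr9:70421555-70421704, minus strand: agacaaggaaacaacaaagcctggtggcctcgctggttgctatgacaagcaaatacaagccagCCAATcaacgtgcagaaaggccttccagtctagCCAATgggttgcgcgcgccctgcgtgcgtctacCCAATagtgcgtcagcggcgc
Cdk1, chr10:69352913-69353062, minus strand: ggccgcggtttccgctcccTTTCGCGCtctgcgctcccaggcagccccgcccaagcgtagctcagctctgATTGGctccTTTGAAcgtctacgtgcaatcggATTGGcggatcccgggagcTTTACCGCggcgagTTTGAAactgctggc
Hmmr, chr11:40733438-40733587, minus strand: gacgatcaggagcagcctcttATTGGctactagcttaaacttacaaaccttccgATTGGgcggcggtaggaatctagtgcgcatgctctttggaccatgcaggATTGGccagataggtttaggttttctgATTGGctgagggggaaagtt
Bub1b, chr2:118598061-118598210, plus strand: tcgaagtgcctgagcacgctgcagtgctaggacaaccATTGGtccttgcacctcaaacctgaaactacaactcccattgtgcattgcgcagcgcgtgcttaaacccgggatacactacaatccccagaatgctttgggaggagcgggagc
Mcm7, chr5:138171884-138172033, minus strand: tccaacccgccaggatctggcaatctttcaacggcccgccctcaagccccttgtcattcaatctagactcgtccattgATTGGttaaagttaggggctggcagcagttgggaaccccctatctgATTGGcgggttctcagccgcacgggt
E2f1, chr2:154569427-154569576, minus strand: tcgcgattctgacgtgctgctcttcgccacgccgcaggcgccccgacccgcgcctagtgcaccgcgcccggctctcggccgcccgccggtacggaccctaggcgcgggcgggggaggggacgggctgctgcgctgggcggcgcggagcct
Ccnb2 held 3 CCAAT, with their first bases at -87, -54 and -21 from the start and so at equal spacing. Hmmr held 4 CCAAT on the other strand, and Cdk1 held 2 CCAAT, 2 TTTGAA and 2 TTTNNCGC. Bub1b held 1 CCAAT and Mcm7 held 2. E2f1 held none of these letters in the bases shown, which says only that they are not in this window. The bases shown for E2f1 and Mcm7 lie inside these genes as GENCODE bounds them, and those for Cdk1 do in part. Ccnb2, Bub1b and Hmmr each had a TTTGAA after the start as well, outside the bases printed. Of the 8 members called higher in AΦ in all 3 comparisons that had an entry, 7 held CCAAT and 6 held TTTGAA or TTCGAA, and of the 28 others with an entry 21 and 15 did.

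Ccnb2 (ENSMUSG00000032218, chr9:70407692-70421547 of mm10, minus strand), which partners Cdk1 in mitosis, did not overlap between the cell types. In TR-AΦ at 4-weeks it stood at 9.18, 4.15 and 7.82 FPKM with FA and at 9.26, 3.92 and 4.295 with PM2.5. CD45.2 monocytes of that time had 0.502, 0.599 and 0 FPKM with FA and 0.743, 0.938 and 0 with PM2.5, so replicate 2 was listed at 0 in both monocyte groups. The fold change on the log2 scale was 2.32 (SE 0.29, adjusted p = 1.45e-07). At 32-weeks TR-AΦ held 3.48, 3.28 and 4.52 FPKM with FA and 4.73, 2.32 and 9.04 with PM2.5. The CD45.2 monocytes held 1.15, 0.928 and 0.766 (FA) and 0.983, 0.4104 and 2.11 (PM2.5), a log2 fold change of 1.39 (SE 0.29, adjusted p = 0.000241). BM-AΦ held 4.41, 4.9 and 7.88 FPKM with FA and 6.78, 3.54 and 10.6 with PM2.5, and CD45.1 monocytes 1.39, 0.705 and 0.897 (FA) and 0.3002, 2.28 and 1.18 (PM2.5). The lowest of the 18 AΦ libraries, at 2.32 FPKM, was above the highest of the 18 monocyte libraries, at 2.28.

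The checkpoint gene Bub1b did not overlap either, and had a smaller adjusted p than Ccnb2 in each comparison. TR-AΦ at 4-weeks had 5.37, 4.34 and 6 FPKM with FA and 5.54, 3.73 and 2.72 with PM2.5, where CD45.2 monocytes had 1.46, 0.5197 and 0.731 (FA) and 0.787, 1.13 and 0.518 (PM2.5). With FA at 32-weeks it was 4.86, 5.26 and 5.92 FPKM in TR-AΦ and 3.58, 5.696 and 4.76 in BM-AΦ, and with PM2.5 5.003, 4.17 and 7.11 and 4.26, 3.79 and 6.71. CD45.2 monocytes of 32-weeks had 1.002, 1.05 and 0.913 (FA) and 1.69, 2.09 and 1.98 (PM2.5), and CD45.1 monocytes 0.916, 1.59 and 1.17 (FA) and 0.533, 1.59 and 1.72 (PM2.5). All of these were below the lowest AΦ library of the whole series at 2.72. Its log2 fold changes were 1.59 (SE 0.17, adjusted p = 9.14e-09) at 4-weeks, 1.39 (SE 0.17, adjusted p = 1.02e-07) for TR-AΦ at 32-weeks and 1.37 (SE 0.17, adjusted p = 1.37e-07) for BM-AΦ, by limma.

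Tpx2 (chr2:152847964-152895321, plus strand), which nucleates spindle microtubules, was low in both cell types and yet did not overlap between them within any of the comparisons. TR-AΦ at 4-weeks had 1.68, 0.582 and 2.07 FPKM with FA and 0.989, 1.16 and 1.43 with PM2.5, and the monocytes of that time had 0.305, 0.236 and 0.186 (FA) and 0.221, 0.237 and 0.115 (PM2.5). At 32-weeks TR-AΦ had 1.83, 1.71 and 2.24 (FA) and 1.81, 2.04 and 3.79 (PM2.5) against 0.492, 0.612 and 0.544 (FA) and 0.631, 0.671 and 1.48 (PM2.5) in CD45.2 monocytes. BM-AΦ had 2.22, 2.13 and 2.11 (FA) and 2.51, 2.14 and 4.35 (PM2.5) against 0.591, 0.289 and 0.227 (FA) and 0.248, 1.36 and 0.714 (PM2.5) in CD45.1 monocytes. The highest monocyte library of each comparison thus lay below the lowest AΦ library, with limma log2 fold changes of 0.899 (SE 0.18, adjusted p = 0.000158) at 4-weeks, 0.89 (SE 0.18, adjusted p = 0.000186) for TR-AΦ at 32-weeks and 1.197 (SE 0.18, adjusted p = 3.43e-06) for BM-AΦ.

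E2f1 (chr2:154559407-154569892, minus strand) had the highest level after Pcna in AΦ. TR-AΦ at 4-weeks showed 9.23, 13.7 and 13.1 FPKM with FA and 11.3, 8.46 and 11.5 with PM2.5. At 32-weeks TR-AΦ showed 13.4, 8.25 and 12.4 with FA and 12.2, 10.8 and 13.7 with PM2.5, and BM-AΦ showed 14.6, 11.7 and 12.9 (FA) and 15.2, 12.4 and 11.5 (PM2.5). In monocytes it was 9.25, 5.82 and 4.24 FPKM with FA and 6.15, 5.67 and 3.61 with PM2.5 at 4-weeks. Replicate 0 of those FA monocytes was the only monocyte library above any AΦ library. Monocytes of 32-weeks showed 6.58, 5.61 and 3.65 (FA) and 4.57, 4.26 and 3.295 (PM2.5) FPKM (CD45.2), and 4.79, 3.96 and 4.86 (FA) and 3.52, 3.89 and 3.91 (PM2.5) (CD45.1). The log2 fold change was 0.88 (SE 0.16, adjusted p = 3.34e-05) at 4-weeks, 1.19 (SE 0.16, adjusted p = 3.98e-07) for TR-AΦ at 32-weeks and 1.45 (SE 0.16, adjusted p = 1.28e-08) for BM-AΦ.

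Mki67 (chr7:135689784-135716361, minus strand), the most used marker of cycling cells, was higher in AΦ in 2 of the 3 comparisons. TR-AΦ at 4-weeks had 8.19, 7.44 and 10.4 FPKM with FA and 7.69, 5.799 and 7.13 with PM2.5, all above the monocytes of that time at 4.41, 2.75 and 2.8 (FA) and 3.56, 2.82 and 3.55 (PM2.5). At 32-weeks TR-AΦ had 7.17, 9.46 and 13.4 with FA and 6.57, 9.11 and 20.5 with PM2.5, and BM-AΦ had 12.6, 9.75 and 12.8 (FA) and 9.37, 9.76 and 24.4 (PM2.5). CD45.2 monocytes of 32-weeks had 5.29, 8.32 and 3.57 (FA) and 3.93, 10.9 and 8.22 (PM2.5), and CD45.1 monocytes had 4.801, 3.97 and 3.67 (FA) and 3.29, 10.7 and 8.67 (PM2.5). At 32-weeks the cell types overlapped, since monocytes reached 10.9 FPKM. The log2 fold change was 1.02 (SE 0.27, adjusted p = 0.00281) at 4-weeks and 1.08 (SE 0.27, adjusted p = 0.00169) in BM-AΦ, and the value in TR-AΦ at 32-weeks, 0.63 (SE 0.27, adjusted p = 0.0579), did not pass, although it did after quantile normalization (limma adjusted p = 0.0326) and in 4 of the 12 fits that left out 1 library (limma adjusted p between 0.0221 and 0.0411). Those libraries were replicate 0 of either TR-AΦ group and replicate 1 of either monocyte group.

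Top2a (chr11:98992943-99024189, minus strand), the topoisomerase that untangles replicated chromosomes, had its highest value in replicate 2 of every AΦ group. TR-AΦ at 4-weeks had 1.54, 1.84 and 9.19 FPKM with FA and 1.97, 2.32 and 5.07 with PM2.5. At 32-weeks TR-AΦ had 4.02, 5.37 and 12 with FA and 3.56, 4.61 and 14.8 with PM2.5, and BM-AΦ had 6.88, 6.88 and 10.5 (FA) and 8.16, 5.95 and 15.9 (PM2.5). Monocytes at 4-weeks had 3.32, 1.29 and 1.61 (FA) and 1.48, 1.63 and 1.402 (PM2.5), CD45.2 monocytes of 32-weeks 2.63, 4.596 and 3.19 (FA) and 2.496, 6.37 and 6.64 (PM2.5), and CD45.1 monocytes 3.16, 1.36 and 2.36 (FA) and 1.37, 5.41 and 7.47 (PM2.5). By limma it was higher in BM-AΦ than in CD45.1 monocytes, by 1.25 (SE 0.37, adjusted p = 0.00641), and did not pass in TR-AΦ at 4-weeks (adjusted p = 0.214) or 32-weeks (adjusted p = 0.23).

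Stmn1 (chr4:134468320-134473843, plus strand) and Rrm2 (chr12:24708241-24714146, plus strand) were likewise called in BM-AΦ. Stmn1 was 12.2, 10.03 and 10.2 FPKM in FA and 9.102, 7.18 and 11.3 in PM2.5 exposed BM-AΦ, all above CD45.1 monocytes at 5.28, 3.44 and 4.38 (FA) and 1.11, 4.62 and 5.58 (PM2.5). TR-AΦ and CD45.2 monocytes overlapped for Stmn1, at 5.395, 4.58 and 10.3 (FA) and 6.82, 4.45 and 6.34 (PM2.5) FPKM against 6.87, 4.42 and 1.65 (FA) and 7.16, 4.96 and 3.37 (PM2.5) at 4-weeks. At 32-weeks they stood at 5.27, 6.41 and 9.303 (FA) and 5.02, 10.3 and 12.6 (PM2.5) against 6.07, 6.61 and 3.82 (FA) and 5.14, 8.45 and 4.79 (PM2.5). The call for Stmn1 was therefore in BM-AΦ, with a log2 fold change of 1.19 (SE 0.28, adjusted p = 0.000764). Rrm2, the limiting subunit of ribonucleotide reductase, was 2.58, 2.78 and 4.497 (FA) and 2.68, 5.18 and 8.31 (PM2.5) FPKM in BM-AΦ against 0.709, 0.175 and 0 (FA) and 0.895, 1.02 and 2.199 (PM2.5) in CD45.1 monocytes, with no overlap. TR-AΦ held 1.14, 1.07 and 5.54 (FA) and 0.809, 1.06 and 3.31 (PM2.5) of Rrm2 at 4-weeks and 1.66, 4.09 and 5.15 (FA) and 1.62, 1.22 and 5.46 (PM2.5) at 32-weeks. The CD45.2 monocytes held 1.79, 0 and 1.03 (FA) and 0.886, 0.202 and 0.242 (PM2.5), then 1.17, 0.584 and 1.05 (FA) and 2.28, 3.13 and 1.69 (PM2.5). Rrm2 passed in BM-AΦ, by 1.56 (SE 0.33, adjusted p = 0.000316), and at 4-weeks, by 0.81 (SE 0.33, adjusted p = 0.046), and missed in TR-AΦ at 32-weeks (adjusted p = 0.144).

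**Figure D3:**
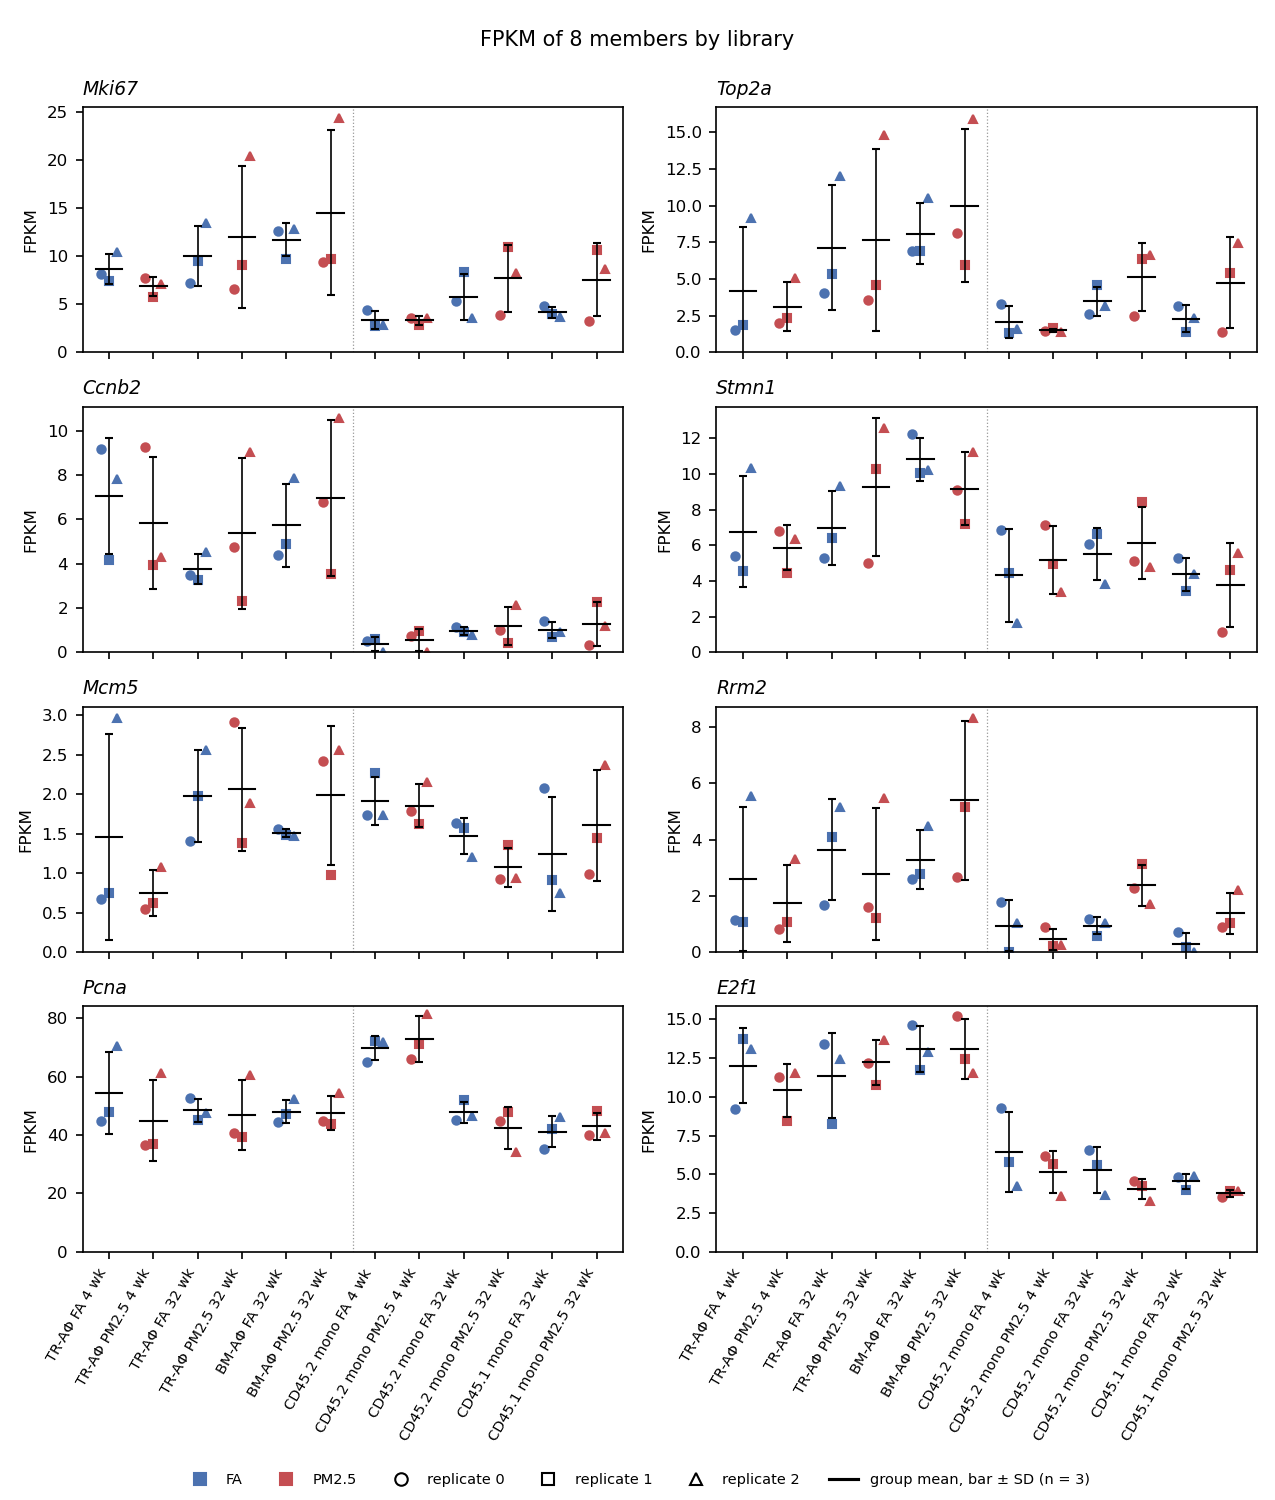
FPKM (y axes, from 0) of Mki67, Top2a, Ccnb2, Stmn1, Mcm5, Rrm2, Pcna and E2f1 in each library, by group (x axis), with the exposure as colour, the replicate number as marker, and the mean ± SD of 3 mice as lines, cut at 0. Ccnb2 and E2f1 were high in the AΦ groups on the left and low in the monocyte groups on the right, Pcna was highest in monocytes of 4-weeks, and replicate 2 (triangles) was the highest AΦ library of most groups for Top2a and Rrm2.

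A few members ran the other way. Pcna (chr2:132249162-132253314, minus strand) had 44.8, 47.8 and 70.4 FPKM in FA and 36.8, 37 and 61.2 in PM2.5 exposed TR-AΦ at 4-weeks, and 64.99, 72.4 and 71.97 (FA) and 66.2, 71.1 and 81.5 (PM2.5) in the CD45.2 monocytes of that time. It was lower in TR-AΦ, with a log2 fold change of -0.55 (SE 0.14, adjusted p = 0.00122), although replicate 2 with FA reached into the range of the monocytes. At 32-weeks TR-AΦ had 52.6, 45.07 and 47.7 (FA) and 40.6, 39.4 and 60.5 (PM2.5), BM-AΦ 44.4, 47.2 and 52.2 (FA) and 44.7, 43.7 and 54.4 (PM2.5), and Pcna passed in neither comparison, with intervals of the log2 fold change of -0.204 to 0.35 in TR-AΦ and -0.096 to 0.46 in BM-AΦ. Mcm5 (chr8:75109569-75128439, plus strand) had 0.666, 0.744 and 2.97 (FA) and 0.544, 0.618 and 1.08 (PM2.5) FPKM in TR-AΦ at 4-weeks against 1.73, 2.27 and 1.74 (FA) and 1.79, 1.63 and 2.15 (PM2.5) in monocytes. Of those AΦ libraries only replicate 2 with FA reached the monocytes, and the log2 fold change was -0.54 (SE 0.203, adjusted p = 0.0301). At 32-weeks Mcm5 was 1.401, 1.98 and 2.56 (FA) and 2.92, 1.39 and 1.89 (PM2.5) in TR-AΦ and 1.57, 1.49 and 1.47 (FA) and 2.43, 0.9697 and 2.56 (PM2.5) in BM-AΦ. The monocytes of 32-weeks held 1.63, 1.57 and 1.21 (FA) and 0.923, 1.36 and 0.936 (PM2.5) (CD45.2), and 2.08, 0.911 and 0.748 (FA) and 0.9899, 1.45 and 2.38 (PM2.5) (CD45.1), which overlapped with AΦ. Kif23 was lower in TR-AΦ at 4-weeks, with a log2 fold change of -0.57 (SE 0.23, adjusted p = 0.0415). Cenpa was lower at 32-weeks, with log2 fold changes of -0.75 (SE 0.23, adjusted p = 0.00867) in TR-AΦ and -0.77 (SE 0.23, adjusted p = 0.00676) in BM-AΦ.

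By role, the mitotic cyclins and kinases gave 6 of 8 tested members higher in AΦ in each of the comparisons, and Aurka and Aurkb were the members not called. Of all genes 22.6% were higher at 4-weeks, 23.6% in TR-AΦ and 27.1% in BM-AΦ at 32-weeks. Counts by role are a description, as many members passed the filter through AΦ alone. These were Ccnb1, Ccnb2, Cdk1 and Plk1 here, Cdca8, Tpx2, Kif11, Prc1 and Hmmr of the spindle genes, and Tyms and Tk1 of the fork genes. Spindle, kinetochore and cytokinesis genes gave 5 of 9 higher at 4-weeks, 2 in TR-AΦ and 7 in BM-AΦ at 32-weeks. Of the 5 fork and nucleotide genes 2 were higher at 4-weeks, 0 in TR-AΦ at 32-weeks and 4 in BM-AΦ. Of the 5 origin genes tested 1, 3 and 3 were higher. Libraries of AΦ and monocytes did not overlap for 6 members at 4-weeks, 5 in TR-AΦ and 16 in BM-AΦ at 32-weeks, all of them higher in AΦ, where 13.6%, 12.9% and 16.1% of all genes lay wholly higher. Without the libraries numbered 2 the members called were 10 of 29 at 4-weeks, 6 in TR-AΦ and 16 in BM-AΦ at 32-weeks, where 42.3%, 40.3% and 43.7% of genes were called. At 4-weeks a fit on the groups compared alone called 8 of 23, against 47.3% of genes. Reads of Ccna2, Cdca8, Prc1, Ube2c, Cdc20, Mcm7 and Tk1 may be shared with coding genes on the opposite strand whose exons overlap theirs, as it is not stated whether the counting used strand, and Ccnb1, Ccnb2, Pcna and Tyms have annotated pseudogenes.

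Whether BM-AΦ and TR-AΦ differed in their distance from monocytes was tested as the difference between the comparisons of 32-weeks. No member passed, where 1.08% of all genes did. The unadjusted p was under 0.05 for 2 of the 33 members and for 1370 of 13307 genes. The 2 were Birc5 (difference of log2 fold changes 0.94, SE 0.45, limma adjusted p = 0.473) and Prc1 (0.82, SE 0.39, limma adjusted p = 0.475). Of the 33 members 27 had the larger fold change in BM-AΦ, with a median difference of 0.34, and the median over all genes was 0.042. BM-AΦ compared directly with TR-AΦ at 32-weeks also gave no called member of 40, against 0.316% of genes. None had an unadjusted p under 0.05, where 944 of 12665 genes did. In that comparison 33 of 40 members were higher in BM-AΦ, with a median of 0.17 and a median over all genes of 0.023. The 7 dendritic cell genes summed to between 9.08 and 31.0 FPKM in BM-AΦ and between 1.46 and 4.86 in TR-AΦ at 32-weeks, without overlap, and their part in these values was not tested. Aurkb, the kinase of the chromosomal passenger complex, was nearest, at 2.03, 1.45 and 2.43 (FA) and 2.73, 2.79 and 3.36 (PM2.5) FPKM in BM-AΦ against 0.823, 1.22 and 1.77 (FA) and 1.403, 0.551 and 3.29 (PM2.5) in TR-AΦ, with a log2 difference of 0.52 and an interval of -0.079 to 1.12 that spans 0. CD45.1 and CD45.2 monocytes of 32-weeks gave no called member of 21, against 0.669% of genes, and the 4 platelet genes summed to between 6.73 and 33.0 FPKM in the former and between 73 and 288.5 in the latter. Mcm3 was nearest there, with a log2 difference, CD45.1 less CD45.2, of -0.43 (SE 0.14, adjusted p = 0.262) by limma, and it was the only member with an unadjusted p under 0.05. Over all genes 1233 of 12856 had an unadjusted p under 0.05.

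In AΦ the members varied together from mouse to mouse within a group. Over the 18 AΦ libraries, with each gene's group mean removed, the median Pearson correlation over the 780 pairs of the 40 members was 0.582, and 98.2% of pairs were above 0. Over all pairs of the 12665 genes the median was 0.0452 and 55.1% were above 0. These are descriptions, since members share their libraries. Taking the closest partner of each member, the highest correlations were those of Top2a with Prc1 (0.951), a microtubule bundling protein, Kif11 with Hmmr (0.927), Ccna2 with Prc1 (0.921), Ccnb1 with Ccna2 (0.918) and Rrm1 with Rrm2 (0.916), the subunits of 1 enzyme. E2f1 was the least coupled member, with a median correlation to the other members of 0.224, and Tyms (0.309) and Cenpa (0.342) came next. Among monocytes the median over 210 pairs of 21 members was 0.214, against 0.0409 over all gene pairs.

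The highest sums of the members fell on replicate 2 in AΦ. Summed over the 44 members, replicates 0, 1 and 2 reached 140, 140.2 and 262 FPKM in TR-AΦ with FA at 4-weeks and 138, 115 and 176 with PM2.5. At 32-weeks TR-AΦ reached 170.1, 181 and 224 with FA and 183, 157 and 313 with PM2.5, and BM-AΦ reached 197, 194 and 234 with FA and 225, 175 and 321 with PM2.5. All 6 AΦ groups thus had their highest library in replicate 2. Of the 40 members tested in AΦ, between 24 and 38 were highest in replicate 2 of a group, where between 37.3% and 47.1% of all genes were. In monocytes the highest sum fell on replicate 0 in 1 group, replicate 1 in 3 and replicate 2 in 2, and the sums ran from 102 to 171 FPKM. The red cell genes were also highest in replicate 2 of the 32-weeks AΦ groups and the B cell genes in that of the 4-weeks AΦ groups, and the AΦ marker genes were highest in replicate 2 of all 6 AΦ groups. Their part in the sums was not tested, and the labels give no meaning to the numbers.

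**Figure D4:**
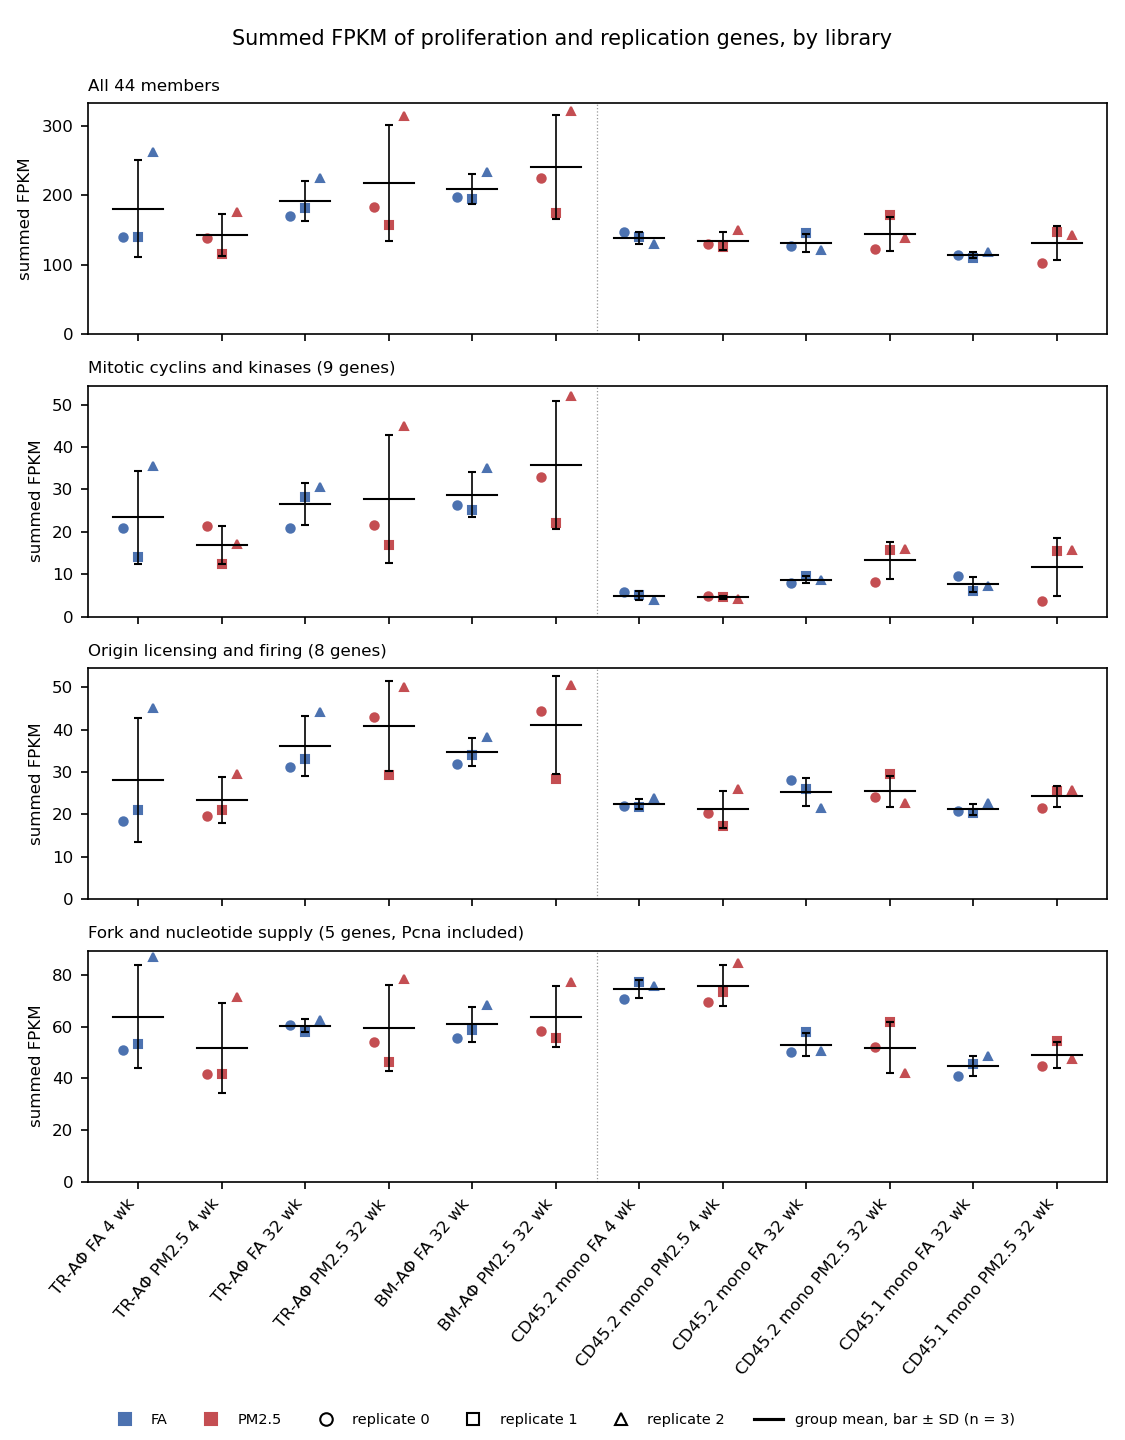
Summed FPKM (y axes, from 0) of all 44 members and of the mitotic, origin and fork groups of genes in each library, by group (x axis), with the mean ± SD of 3 mice as lines. Replicate 2 (triangles) had the highest sum over all members in each of the 6 AΦ groups, up to 321 FPKM, and the monocyte groups lay between 102 and 171.

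Exposure was compared within each cell population, to ask whether PM2.5 changed the division programme of AΦ or of the monocytes that may replace them. No member passed limma in any of the 6 comparisons of exposure. In TR-AΦ at 4-weeks 0 of 40 members were called, against 0.00790% of all genes, and 1 member had an unadjusted p under 0.05. In TR-AΦ at 32-weeks it was 0 of 40 against 0% of genes, with none at an unadjusted p under 0.05, and in BM-AΦ 0 of 40 against 0.0158%, with 1. In monocytes it was 0 of 21 each: at 4-weeks against 0.00778% of genes and with none at an unadjusted p under 0.05, in CD45.1 monocytes of 32-weeks against 0% and with 1, and in CD45.2 monocytes against 0% and with none. Over all genes the unadjusted p was under 0.05 for 372, 396 and 259 of 12665 in the AΦ comparisons, in the order given. In the monocyte comparisons it was 272, 609 and 547 of 12856. The background of called genes was at or near 0 in each, so these counts say nothing particular about the members.

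The member nearest to a call in TR-AΦ at 4-weeks was Cdc20, the activator of the anaphase-promoting complex. It was 2.42, 2.06 and 2.002 FPKM with FA and 1.19, 0.472 and 0.632 with PM2.5, so that all 3 PM2.5 libraries lay below all 3 FA libraries. The log2 fold change was -0.86 (SE 0.29, unadjusted p = 0.00957 and adjusted p = 1 by limma). Kif2c was the other member without overlap, at 0.798, 0.763 and 0.881 FPKM against 0.483, 0.3795 and 0.533, where 3.51% of all genes lay wholly below. At this time 33 of the 40 members had a lower mean with PM2.5, with a median log2 fold change of -0.27 and a median over all genes of -0.021. The members summed to 140, 140.2 and 262 FPKM with FA and to 138, 115 and 176 with PM2.5. Of the FA libraries, replicate 2 was the highest for 35 of the 40 members and for 43.8% of all genes. Of the PM2.5 libraries, replicate 2 was the highest for 25 members and for 47.1% of all genes. How far the count by direction depends on these libraries was not tested. Mki67 differed by -0.29 with an interval of -1.097 to 0.51, and Top2a by -0.1 with an interval of -1.34 to 1.15 and a value of 0.54 without replicate 2 of the FA mice.

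At 32-weeks most member values had the other sign in both AΦ populations. In TR-AΦ 31 of 40 members were higher with PM2.5, with a median log2 fold change of 0.18 and a median over all genes of 0.000, and in BM-AΦ 32 of 40 were higher, with a median of 0.18 and -0.012 over all genes. Replicate 2 of the PM2.5 mice was the highest of its group for 35 members in TR-AΦ and 38 in BM-AΦ, against 38.4% and 37.3% of all genes. With FA, replicate 2 was the highest for 26 and 24 members, against 40.55% and 42.1% of all genes. How far the counts by direction depend on these libraries was not tested. Aurka in BM-AΦ had the smallest unadjusted p, at 1.27, 1.31 and 0.665 FPKM with FA and 2.44, 1.69 and 2.84 with PM2.5, which did not overlap. Its log2 fold change was 0.67 (SE 0.26, limma unadjusted p = 0.0198 and adjusted p = 1). Aurkb in BM-AΦ and the helicase factor Cdc45 in TR-AΦ were also without overlap, all higher with PM2.5, where 2.78% and 3.23% of all genes lay wholly higher. Mki67 differed by 0.14 in TR-AΦ, with an interval of -0.67 to 0.94, and by 0.16 in BM-AΦ, with an interval of -0.64 to 0.97. Top2a differed by -0.012 (-1.26 to 1.23) and 0.197 (-1.05 to 1.44). All 4 intervals spanned 0. Without replicate 2 of the PM2.5 mice the value of Mki67 turned to -0.29 in TR-AΦ and -0.26 in BM-AΦ.

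Monocytes gave 15 of 21 members lower with PM2.5 at 4-weeks, with a median of -0.13 against -0.006 over all genes, 16 of 21 higher in CD45.1 monocytes of 32-weeks, with a median of 0.22 against 0.027, and 14 of 21 higher in CD45.2 monocytes, with a median of 0.10 against 0.022. Rrm2 was without overlap in both monocyte populations of 32-weeks, at 0.709, 0.175 and 0 FPKM with FA and 0.895, 1.02 and 2.199 with PM2.5 in CD45.1 cells. Its log2 fold change was 0.87 (limma unadjusted p = 0.041 and adjusted p = 0.946) in CD45.1 and 0.79 (limma unadjusted p = 0.0594 and adjusted p = 1) in CD45.2 monocytes. Among the members tested, Mcm7 in CD45.1 and Bub1b in CD45.2 monocytes also lay wholly higher with PM2.5, as did 6.49% and 3.81% of all genes. E2f1 lay wholly lower in CD45.1 monocytes, as did 2.40% of genes.

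The difference between the PM2.5 effects was tested as such. Between TR-AΦ at 32-weeks and at 4-weeks no member passed, against 0.00790% of genes, and 380 of 12665 genes had an unadjusted p under 0.05. Of the 40 differences 37 were positive with a median of 0.42, where the median over all genes was 0.025. That count is a description, since members varied together within AΦ groups (median correlation 0.582). Replicate 2 was the highest for 35 members both with FA at 4-weeks and with PM2.5 at 32-weeks. Cdc20 had the largest difference, of 1.201 (SE 0.41, limma unadjusted p = 0.0104 and adjusted p = 1), and was the only member with an unadjusted p under 0.05. Between BM-AΦ and TR-AΦ at 32-weeks no member passed either, against 0.0158% of genes, and 240 of 12665 genes had an unadjusted p under 0.05. Aurka alone had an unadjusted p under 0.05 there, with a difference of 0.82 (SE 0.36, limma unadjusted p = 0.0413 and adjusted p = 1).

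**Figure D5:**
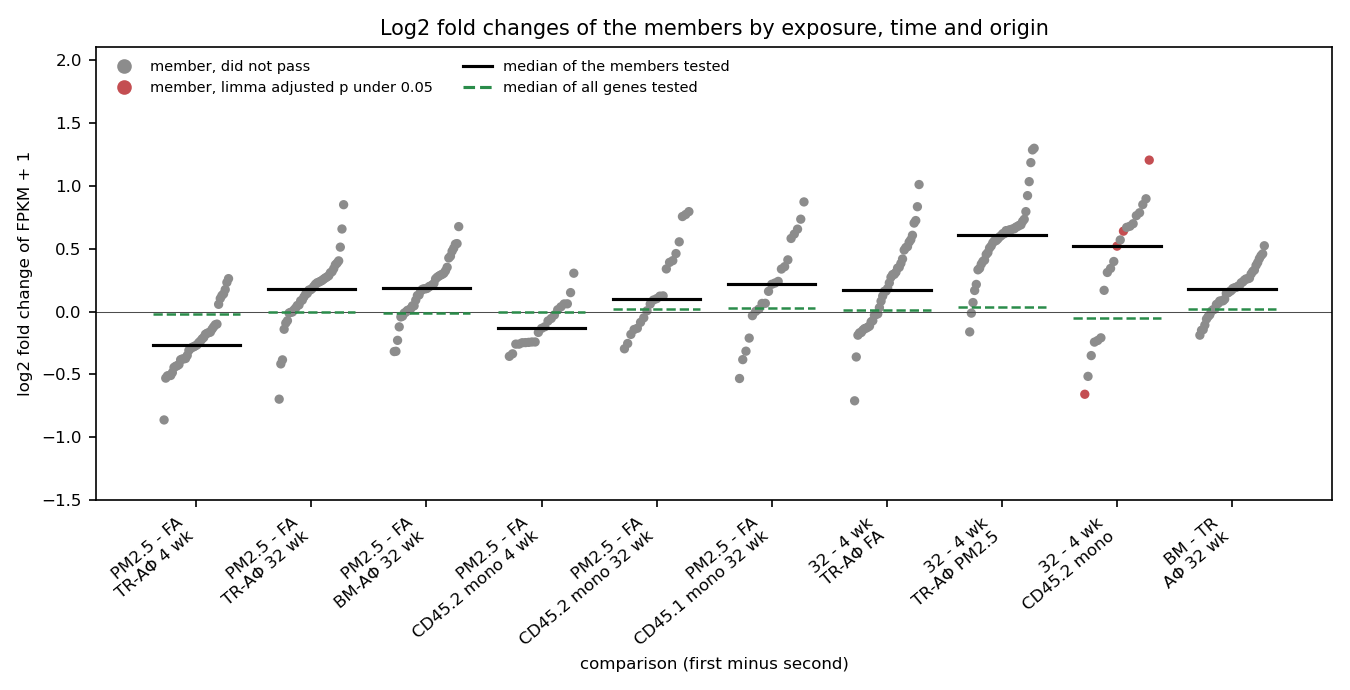
Log2 fold change of FPKM + 1 (y axis) of each member tested in the comparisons of exposure, time and origin (x axis), ordered by size within a comparison, with the members' median as a black line and the median of all genes as a green broken line. Red points passed limma at an adjusted p of 0.05, which were 4 members in CD45.2 monocytes of 32-weeks against 4-weeks and none elsewhere.

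Time was compared in TR-AΦ of each exposure and in CD45.2 monocytes. The 32-weeks groups were also older by the added exposure time, so age and exposure time cannot be told apart, and the time comparisons use the same libraries as the exposure comparisons. In FA exposed TR-AΦ 0 of 40 members were called, against 0.782% of genes, and none had an unadjusted p under 0.05, where 1535 of 12665 genes did. In PM2.5 exposed TR-AΦ 0 of 40 were called, against 1.05% of genes, and 9 had an unadjusted p under 0.05, as did 1928 of 12665 genes. There 38 of the 40 members were higher at 32-weeks, with a median log2 fold change of 0.61 and a median over all genes of 0.035, and 13 lay wholly higher, as did 10.1% of genes. Those 13 were Aurka, Aurkb, Ccna2, Cdc20, Gins2, Kif11, Kif20a, Kif2c, Mcm2, Mcm4, Mcm5, Mcm7 and Tpx2.

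Cdc20 came nearest to a call, from 1.19, 0.472 and 0.632 FPKM at 4-weeks to 3.298, 1.65 and 4.39 at 32-weeks, a log2 fold change of 1.18 (SE 0.29, adjusted p = 0.0681) by limma. In FA exposed TR-AΦ it was 2.42, 2.06 and 2.002 and then 1.39, 2.55 and 2.56, so that the low values were those of PM2.5 at 4-weeks. Ccna2, the cyclin of S and G2 phase, went from 2.41, 1.02 and 2.59 to 4.66, 4.25 and 10.95 FPKM, by 1.28 (SE 0.45, adjusted p = 0.194). Mcm5 went from 0.544, 0.618 and 1.08 to 2.92, 1.39 and 1.89, by 0.79 (SE 0.34, adjusted p = 0.27), also without overlap. Top2a and Mki67 overlapped, with log2 fold changes of 0.92 and 0.59. Other settings gave at most 2 called members here.

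Members were called with time in CD45.2 monocytes: of 21 tested, 3 rose and 1 fell from 4-weeks to 32-weeks. Of all genes 14.9% were called, 7.06% higher and 7.83% lower. Among the 21, Mcm3 alone lay wholly higher and Pcna alone wholly lower at 32-weeks, as did 4.06% and 3.66% of all genes. Cenpe and Tpx2, under the filter, also lay wholly higher. With 21 members these counts were near the shares of all genes, and they are not read as a trait of the members. Pcna fell, from 64.99, 72.4 and 71.97 FPKM with FA and 66.2, 71.1 and 81.5 with PM2.5 to 45.16, 51.9 and 46.5 (FA) and 44.96, 48.1 and 34.2 (PM2.5). The times did not overlap, and the log2 fold change was -0.66 (SE 0.11, adjusted p = 0.00165). Mcm3 rose from 5.55, 3.47 and 5.01 (FA) and 4.67, 3.24 and 4.69 (PM2.5) to 6.57, 6.68 and 6.37 (FA) and 6.05, 8.32 and 6.37 (PM2.5), again without overlap and with a log2 fold change of 0.52 (SE 0.14, adjusted p = 0.023). Ccna2 rose from 1.05, 0.0992 and 0 (FA) and 0.644, 0.4099 and 0.325 (PM2.5) to 0.995, 2.56 and 1.06 (FA) and 1.72, 3.98 and 4.19 (PM2.5), by 1.202 (SE 0.303, adjusted p = 0.0156), with overlap. Mcm7 rose from 2.92, 4.44 and 3.41 (FA) and 2.27, 1.87 and 3.78 (PM2.5) to 6.43, 5.297 and 3.75 (FA) and 5.39, 7.69 and 3.85 (PM2.5), by 0.64 (SE 0.19, adjusted p = 0.0386), also with overlap. Top2a (0.895, limma adjusted p = 0.0646) and Mki67 (0.76, limma adjusted p = 0.0713) did not pass. The clamp Pcna and the called helicase subunits Mcm3 and Mcm7 thus moved in opposite directions. The other subunits of the set were not called and did not all rise. Mcm5 lay between 1.625 and 2.265 FPKM at 4-weeks and between 0.923 and 1.629 at 32-weeks. Mcm4 lay between 6.99 and 11.25 and then between 6.31 and 8.07, and Mcm2 between 1.35 and 3.07 and then between 1.82 and 3.98.

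Other markers moved between these monocyte groups. The 9 monocyte marker genes summed to between 3246 and 4220 FPKM at 4-weeks and to between 1155 and 3274 in CD45.2 monocytes of 32-weeks, and the 4 platelet genes to between 1.60 and 14.9 and between 73 and 288.5. The AΦ marker genes summed to between 214 and 324.7 FPKM at 4-weeks and between 264 and 1406 at 32-weeks, and the dendritic cell genes to between 11.3 and 101 and between 37.6 and 125.9. Replicate 1 of the PM2.5 exposed CD45.2 monocytes of 32-weeks held the AΦ marker sum of 1406 and also the highest Mcm3 and Mcm7 of these groups. Without it neither passed, with log2 fold changes of 0.457 for Mcm3 (limma adjusted p = 0.0638) and 0.53 for Mcm7 (limma adjusted p = 0.103). CD45.1 monocytes of 32-weeks held 35.4, 42.1 and 46.04 FPKM of Pcna with FA and 40.1, 48.2 and 40.7 with PM2.5, near the CD45.2 monocytes of that time, with platelet genes at between 6.73 and 33.0. The part of other cells in the changes with time was not tested. Without the libraries numbered 2 there were 2 called members of 23, against 7.96% of genes, and without replicate 1 of the PM2.5 monocytes of 4-weeks there were 2 as well, against 12.9%. Leaving out replicate 2 of the FA exposed CD45.2 monocytes of 32-weeks gave 6, against 15.4%. Over the 12 fits that each left out 1 library, the call for Mcm3 was lost in 3 (limma adjusted p between 0.059 and 0.0638), those without replicate 1 of either group of 4-weeks or of the PM2.5 group of 32-weeks. That for Mcm7 was lost in 8 (limma adjusted p between 0.0649 and 0.103), those without replicate 0 of any of the 4 groups, replicate 1 of any but FA at 4-weeks, or replicate 2 of FA at 4-weeks. The call for Mcm7 was lost without a filter, with quantile normalization and with only the groups compared (limma adjusted p = 0.0706, 0.0593 and 0.0616), and those for Ccna2 and Mcm3 without the libraries numbered 2 (limma adjusted p = 0.12 and 0.106).

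Lists of other cell cycle genes were set beside the members. Of 38 other mitotic genes, 21 were tested between the cell types, and 10, 10 and 18 were higher and 2, 1 and 0 lower in TR-AΦ at 4-weeks, TR-AΦ at 32-weeks and BM-AΦ at 32-weeks, where 22.6%, 23.6% and 27.1% of all genes were higher and 25.5%, 23.7% and 23.8% lower. Of the 38, 25 reached the filter over AΦ libraries and 13 over monocyte libraries. The filter thus favoured higher calls, and these counts are a description. Without a filter 14, 15 and 28 were higher, against 13.4%, 12.2% and 13.5% of genes, and 2, 1 and 0 lower, against 13.6%, 14.7% and 12.2%. The phosphatase Cdc25b, which activates Cdk1, led these mitotic genes with log2 fold changes of 2.44, 2.26 and 2.61. Anln, a scaffold of the cytokinetic ring, followed with 2.26, 1.71 and 2.29. Racgap1, the partner of Kif23 in the central spindle, was lower in TR-AΦ, with a log2 fold change of -1.27 at 4-weeks and -0.63 at 32-weeks, the direction of Kif23 at 4-weeks. Of 34 other replication genes 21 were tested, and 5, 5 and 8 were higher and 2, 1 and 1 lower, so that the higher calls in TR-AΦ were near the share of all genes. Among them the maintenance methyltransferase Dnmt1 was higher in each, by 0.51, 0.52 and 0.68. All values passed limma at an adjusted p of 0.05.

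Of 17 genes of cell cycle entry tested, 4, 6 and 6 were higher in AΦ and 5, 6 and 6 lower, in the same order, against the shares of all genes just given. Cyclin D2 was higher in AΦ, with Ccnd2 at a mean of 83.0 FPKM in TR-AΦ at 4-weeks and 17.3 in monocytes, and log2 fold changes of 2.23, 3.202 and 3.43. Its partner kinase Cdk6 was higher by 1.96, 1.32 and 2.07. Cyclin D3 was lower, with Ccnd3 at a mean of 35.6 FPKM in TR-AΦ at 4-weeks and 114.5 in monocytes, and log2 fold changes of -1.63, -1.34 and -1.26. E2f2, a relative of E2f1, was lower in AΦ, with log2 fold changes of -1.52, -1.13 and -1.19, opposite to E2f1. Of 14 genes tested from the growth factor axis of macrophages 5, 8 and 7 were higher and 6, 4 and 5 lower. Their median log2 fold change was -0.062, 0.52 and 0.45, so the 2 lower genes named next do not stand for the list. The transcription factor Maf was lower in AΦ, with log2 fold changes of -1.95, -4.69 and -3.103. The receptor of macrophage colony-stimulating factor, Csf1r, was also lower, with log2 fold changes of -2.41, -2.95 and -2.36. All genes named here passed limma at an adjusted p of 0.05.

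With exposure none of these lists held a called gene in any of the 6 comparisons. With time in PM2.5 exposed TR-AΦ the only call was Ckap2l, a spindle protein, which fell from a mean of 11.7 to 3.45 FPKM (log2 fold change -1.601, limma adjusted p = 0.0412), against the direction of most members, and was not called without a filter. In CD45.2 monocytes, Ncapg2 and Ncapd2, subunits of condensin II and condensin I, and Anln rose with time, by 0.87, 0.77 and 0.81, and Mcm6 rose by 0.59, as Mcm3 and Mcm7 did. Myc rose from a mean of 3.79 to 12.7 FPKM, by 1.51 (limma adjusted p = 0.00632), and Ccnd3 fell by 0.43 on the log2 scale.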

How the data were processed

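RNA was measured by RNA-seq in 36 libraries, 3 in each of 12 groups set by the titles of the labels. The FPKM table was used as the authors deposited it: per the study's methods and the submitters' processing notes, they aligned reads to mm10 with STAR and computed FPKM with Cufflinks. Whether the counting used strand is not given in the sources used here. FPKM gave no steps from which whole reads could be recovered, so the depth is unknown, no count model was used, and no counting interval is given.

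The 44 members and all gene lists were chosen with earlier results of these data known. The 17 comparisons were fitted with limma 3.58.1 in R 4.3.3 (empirical Bayes with trend, 1 mean per group) on log2(FPKM + 1), over genes that averaged 1 FPKM or more across the libraries of the model (12665 genes for AΦ, 12856 for monocytes and 13307 for both), and p-values were adjusted by Benjamini-Hochberg over all of them at a threshold of 0.05. Fold changes on this scale understate those of low genes. P-values measure the spread between 3 libraries per group, and libraries of different cell populations that may share mice were treated as separate. Counts of members by direction are descriptions, since members share libraries and varied together within groups. Alternatives were a pseudocount of 0.1, no filter, quantile normalization, only the groups compared, a replicate block and leaving out each library, and, chosen after seeing the data, leaving out the libraries numbered 2. All members could be named. Per-library values were given for Mki67, Top2a, Ccnb2, Mcm5, Pcna, Rrm2, Stmn1, E2f1 and up to 4 members of smallest adjusted p per comparison, and members nearest to a call or without overlap between exposure groups were added after their values were seen. Of the other lists, up to 3 genes per direction were named in a comparison. Gene positions are from GENCODE vM21 (mm10) and promoters from RefSeq (GRCm38.p6). Scripts were tested on simulated data. A gene of the macrophage growth factor list is not reported here by name.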

Additional observations from a re-analysis of the deposited data

How the results depend on the processing

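The counts of called members were 0 under every alternative run for the 6 comparisons of exposure, the 2 of origin, the 3 differences between effects and time in FA exposed TR-AΦ. With time in PM2.5 exposed TR-AΦ, 0 members became 1 with a pseudocount of 0.1, 1 with quantile normalization and 2 with the replicate block, and ranged from 0 to 1 when a library was left out (1 without replicate 0 of PM2.5 at 4-weeks). With time in CD45.2 monocytes, 4 became 7 without a filter and 2 without the libraries numbered 2, and ranged from 2 to 6 when a library was left out. Between AΦ and monocytes at 4-weeks, 19 became 8 with only the groups compared and 10 without the libraries numbered 2, with a leave-one-out range of 12 to 18 (12 without replicate 2 of FA exposed TR-AΦ). At 32-weeks the libraries numbered 2 lowered the counts from 27 to 16 in BM-AΦ and from 14 to 6 in TR-AΦ when left out, where 29 members were tested, so fewer genes and samples entered that fit. Leaving out each library gave 24 to 27 in BM-AΦ and 10 to 17 in TR-AΦ. Single values reversed for Mki67 and Top2a. Without the libraries numbered 2 the effect of PM2.5 was 0.224 for Top2a in TR-AΦ at 4-weeks, and for Mki67 -0.080 in TR-AΦ and -0.195 in BM-AΦ at 32-weeks. Leaving out each library, Top2a ranged from -0.460 to 0.541 in TR-AΦ at 4-weeks, from -0.562 to 0.388 in TR-AΦ at 32-weeks and from -0.165 to 0.477 in BM-AΦ. Mki67 ranged from -0.294 to 0.457 in TR-AΦ at 32-weeks, from -0.259 to 0.388 in BM-AΦ, and with time in FA exposed TR-AΦ from -0.054 to 0.356. The rise of Mcm7 in monocytes did not pass without a filter (limma adjusted p = 0.0706), with quantile normalization (0.0593), with only the groups compared (0.0616) or with the block (0.051). The cause of these changes was not tested.

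Replicate numbers were not used to pair the samples in the main fits, as the labels give them no meaning. Over 48 pairs of libraries with the same number the correlation of deviations ran from -0.087 to 0.209, with 4 over 0.1. The same number gave the best correlation in 32 of the 48. All libraries of a pair of groups correlated best with their own number in 6 of 16 pairs of groups. These values are a hint from the data and not the design, and whether the numbers mark shared mice is not known. With the replicate block the called members were 20 at 4-weeks, 27 in BM-AΦ and 19 in TR-AΦ between the cell types, and 5 with time in CD45.2 monocytes, and Mki67 passed between TR-AΦ and monocytes at 32-weeks (0.634, limma adjusted p = 0.0185). The block called 0 members in the remaining comparisons other than the 2 with time in PM2.5 exposed TR-AΦ. Depth is unknown, so how far counting error limits members near 1 FPKM could not be given.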
